A study of Mus musculus with 24 samples.

Results

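The genes described here are 10 targets and components of the NRF2 antioxidant response, chosen by gene name with earlier results of these data known: Hmox1, Nqo1, Gclm, Gclc, Txnrd1, Srxn1, Gsr, G6pdx, Osgin1 and Nfe2l2. Each had 1 entry among the 33034 genes measured, and all 10 passed the filter on low counts in every fit. They were measured by RNA sequencing of MOVAS, a smooth-muscle line from mouse aorta, in 24 libraries that form 8 groups of 3. The groups were Adam9-KO given rhCTHRC1, Adam9-KO given vehicle, Rosa26-KO given rhCTHRC1, Rosa26-KO given vehicle, ADAM9i given rhCTHRC1, ADAM9i given vehicle, WT given rhCTHRC1 and WT given vehicle. rhCTHRC1 is, by its name, recombinant human CTHRC1, a secreted protein found in injured and remodelling vessels. Adam9-KO cells were edited at Adam9, which encodes a membrane-bound metalloprotease, and Rosa26-KO cells were edited at Rosa26, a locus commonly edited as a control. ADAM9i cells were unedited WT cells given an ADAM9 inhibitor that the labels do not name. The labels give no dose, no time and no account of whether the 3 libraries of a group came from separate cultures, so p measures only the spread between these libraries, which may be technical. They also do not say whether a knockout is 1 clone or a pool of edited cells.

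NRF2, encoded by Nfe2l2, is a transcription factor that KEAP1 binds in the cytoplasm and passes to degradation. Oxidants and electrophiles modify KEAP1, and NRF2 then enters the nucleus, pairs with a small MAF protein and binds antioxidant response elements near its target genes, where BACH1 competes as a repressor. The targets make glutathione, recycle thioredoxin, reduce quinones, supply NADPH and break down haem, and in arterial smooth muscle they are known for limiting oxidant damage and proliferation.

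Promoter sequence was available for 7 of the 10 genes, as 9 RefSeq windows of 300 bases on build GRCm38.p6 that run from 250 bases before to 50 after an annotated start. Hmox1, Gclc and Gsr had none. The windows were searched on both strands for TGACNNNGC, the core of the antioxidant response element, and for its variant TGAGNNNGC. Either was found in 6 of the 9 windows, belonging to 6 genes, against 27.8% of all 32851 windows of that length. TGACNNNGC was in 5 of the 9 windows, against 12.4% of all windows, and TGAGNNNGC in 2 of the 9, against 17.6%. The matches before the annotated start in the windows of 5 of these genes are shown because they are the sequence that members of the group could share. Their 9 matching bases are in capitals as they stand on the gene's strand, counted back from base -1 just before that start. The Txnrd1 and Osgin1 matches lie inside the loci given below for these genes, so their windows belong to annotated starts within the locus. The Gclm, Srxn1 and Nfe2l2 matches lie upstream of the locus.
Gclm, from -134, chr3:122245408-122245446 (+): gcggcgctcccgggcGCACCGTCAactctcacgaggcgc
Txnrd1, from -92, chr10:82859099-82859137 (+): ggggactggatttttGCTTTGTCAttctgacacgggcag
Srxn1, from -158, chr2:152105351-152105389 (+): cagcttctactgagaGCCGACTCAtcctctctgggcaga
Srxn1, from -45, chr2:152105464-152105502 (+): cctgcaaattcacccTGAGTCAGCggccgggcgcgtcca
Osgin1, from -99, chr8:119437033-119437071 (+): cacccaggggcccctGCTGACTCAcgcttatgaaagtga
Nfe2l2, from -240, chr2:75704880-75704913 (-): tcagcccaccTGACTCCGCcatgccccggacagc
G6pdx also held a match before the annotated start of its window, TGACTGAGC, from -57 at chrX:74428929-74428937. This match lies inside the G6pdx locus given below, in an annotated 5' untranslated region, so its surrounding bases are not printed. The nearer Srxn1 match and the Osgin1 match also contain TGACTCA, the AP-1 motif, which 5.2% of all windows hold. Nqo1, the member with the widest range of levels, held neither element in its window. Its upstream stretch, chr8:107403207-107403306 (-), is shown with a TATAAA in capitals, which 8.32% of all windows hold.
Nqo1, from -29: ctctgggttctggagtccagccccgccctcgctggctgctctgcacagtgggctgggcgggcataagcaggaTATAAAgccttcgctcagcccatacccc
A match is a run of letters and not a measured binding site, and the absence of one says only that these letters are not in this window.

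Libraries held 53135752 to 65833125 counts in genes, and levels below are CPM (read counts brought to a common library size, with TMM scaling) unless FPKM is named. Adam9 averaged 139 ± 10.1 CPM in Adam9-KO vehicle and 236 ± 6.35 CPM in Rosa26-KO vehicle (SD, n = 3 each), a log2 difference of -0.78 ± 0.05 (SE). It averaged 164 ± 6.47 CPM in ADAM9i vehicle and 249 ± 35.2 CPM in WT vehicle (-0.61 ± 0.12, edgeR adjusted p = 0.00185). Reads of Adam9 were thus fewer but present after editing, and fewer under the inhibitor too. Endogenous Cthrc1 was at 0 counts in 23 of the 24. The 3 WT vehicle libraries stood apart from the other 21. They lay at -119.3 to -114.5 on the first principal component (24.9% of the variance), against -7.2 to 54.3 elsewhere, and the WT response is therefore also given below against vehicle libraries of other backgrounds. Of the 8 smooth-muscle markers, Acta2 averaged 299.7 CPM over all libraries and Smtn 82.8 CPM, whereas Cnn1 averaged 0.964 CPM and Myh11 0.345 CPM, so these 2 defining contractile markers were near 0 in the line. Epithelial markers (5 genes) summed to at most 0.995 CPM in any library.

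In Rosa26-KO cells rhCTHRC1 lowered 6 of the 10 genes and raised 2. The 6 were Hmox1, Gclm, Gclc, Txnrd1, Gsr and Nfe2l2, and the 2 were Nqo1 and G6pdx. Of all 18594 genes tested, 23.3% were lower and 22% were higher at the same threshold, an adjusted p of 0.05. By count, the lower members exceeded that share and the higher members lay near it. The members were chosen with earlier results of these data known, so this is a description and not a test. The median log2 change was -0.21 over the members and 0.03 over all genes tested. With library size alone as the scaling, 59.3% of the called genes were higher, against 48.6% with TMM, and the members then split into 3 higher and 5 lower. Of all 18594 genes tested, 5084 were higher and 3486 lower with that scaling.

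Hmox1, at chr8:75093621-75100589 (+), encodes haem oxygenase-1, which degrades haem to biliverdin, iron and carbon monoxide. It had 57.6, 57.8 and 62.1 CPM in Rosa26-KO libraries given rhCTHRC1, against 116, 126 and 120.2 CPM in Rosa26-KO vehicle libraries. The groups did not overlap. The log2 change was -1.03 ± 0.05 (SE, adjusted p = 4.82e-12).

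The enzymes of glutathione synthesis and recycling fell with it. Gclm, at chr3:122245557-122270732 (+), encodes the modifier subunit of glutamate-cysteine ligase, which catalyses the rate-limiting step of glutathione synthesis. It had 58.0, 57.7 and 64.0 CPM under rhCTHRC1, against 84.5, 93.0 and 85.4 CPM under vehicle, without overlap. Its log2 change was -0.55 ± 0.05 (adjusted p = 7.45e-08). An antisense neighbour, Gm17494, overlaps Gclm over 14775 bases and averaged 23.9 CPM against 72.7 CPM for Gclm, and whether strand was used in counting is not given, so reads of the pair may not have been told apart. Gclc, at chr9:77754535-77794485 (+), encodes the catalytic subunit. It had 58.2, 58.6 and 58.7 CPM under rhCTHRC1, against 71.9, 70.4 and 66.8 CPM under vehicle. The log2 change of -0.25 ± 0.05 (adjusted p = 0.000129) was smaller than that of Gclm, with no overlap between the groups. Gsr, at chr8:33652523-33698163 (+), encodes glutathione reductase, which returns oxidised glutathione to its reduced form with NADPH. It had 55.9, 55.6 and 54.5 CPM under rhCTHRC1, against 68.7, 69.2 and 65.5 CPM under vehicle, and its log2 change was -0.29 ± 0.06 (adjusted p = 0.000259).

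Of the thioredoxin branch 1 of the 2 members fell. Txnrd1, at chr10:82833951-82897712 (+), encodes cytosolic thioredoxin reductase. It had 183, 179 and 182 CPM in Rosa26-KO cells given rhCTHRC1, against 265, 259.7 and 266 CPM under vehicle. All treated libraries lay below all vehicle libraries, with a log2 change of -0.54 ± 0.04 (adjusted p = 1.67e-09). Srxn1, at chr2:152105516-152109322 (+), encodes sulfiredoxin, which reactivates over-oxidised peroxiredoxins. It had 44.6, 40.3 and 41.6 CPM under rhCTHRC1, against 43.4, 46.4 and 43.6 CPM under vehicle. These groups overlapped, and the log2 change of -0.08 ± 0.05 missed the threshold (adjusted p = 0.263).

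Nqo1 moved the other way. It lies at chr8:107388225-107403206 (-) and encodes a quinone reductase that is often used to read out NRF2 activity. It had 25.7, 24.6 and 26.8 CPM under rhCTHRC1, against 14.2, 16.7 and 13.6 CPM under vehicle. The groups did not overlap, and the log2 change was 0.79 ± 0.08 (adjusted p = 2.28e-07).

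The remaining 3 members moved little. G6pdx, at chrX:74409483-74429194 (-), encodes the NADPH-producing first enzyme of the pentose phosphate pathway, and it shares sequence with the retrogene G6pd2. It had 187, 175 and 173 CPM under rhCTHRC1, against 163, 167 and 169 CPM under vehicle, a log2 change of 0.10 ± 0.03 (adjusted p = 0.0197). The call did not hold without Rosa26-KO rhCTHRC1 replicate 1 (log2 0.06, adjusted p = 0.226), without Rosa26-KO vehicle replicate 1 (0.08, 0.133) or without Rosa26-KO vehicle replicate 3 (0.09, 0.0584). Ikbkg lies on the opposite strand of all of G6pdx, over 19712 bases, and averaged 55.6 CPM against 174 CPM for G6pdx. Osgin1, at chr8:119434124-119446256 (+), encodes an oxidative stress-induced growth inhibitor. It had 28.3, 29.4 and 25.2 CPM under rhCTHRC1, against 25.8, 22.3 and 23.8 CPM under vehicle, and its log2 change of 0.21 ± 0.09 missed the threshold (adjusted p = 0.0659), which it passed with library size as the scaling (0.28, 0.0131) and without Rosa26-KO rhCTHRC1 replicate 3 (0.27, 0.0334). Nfe2l2, at chr2:75675513-75704641 (-), encodes NRF2 itself. It had 97.1, 99.4 and 101.2 CPM under rhCTHRC1, against 106, 115 and 116 CPM under vehicle, without overlap, and a log2 change of -0.18 ± 0.04 (adjusted p = 0.00205). Scaled by library size alone, Nfe2l2 no longer passed (-0.10, adjusted p = 0.0533). NRF2 is regulated mainly through its protein, which was not measured here.

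In Adam9-KO cells no member passed the threshold, nor did any of the 18594 genes tested (0%). At an unadjusted p under 0.05 there were 2 members, Gclm and Txnrd1, and 1387 genes. DESeq2 called 0 members and 33 genes, and limma on log2(FPKM + 1) called 0 of each. The members' log2 changes ran from -0.07 for Osgin1 to 0.14 for Nqo1, with SEs of 0.03 to 0.09. Hmox1 had 150.5, 153 and 147 CPM in Adam9-KO libraries given rhCTHRC1, against 162, 152 and 144 CPM in Adam9-KO vehicle libraries, a log2 change of -0.02 ± 0.05 (adjusted p = 0.966). Nqo1 had 18.7, 17.98 and 18.4 CPM under rhCTHRC1, against 17.7, 15.6 and 17.0 CPM under vehicle. Its treated libraries all lay above its vehicle libraries, but the log2 change of 0.14 ± 0.08 missed the threshold (adjusted p = 0.745). Gclm had 93.4, 87.7 and 97.3 CPM under rhCTHRC1, against 83.8, 86.2 and 86.0 CPM under vehicle (log2 0.13 ± 0.05, adjusted p = 0.601). Txnrd1 had 262, 253 and 282 CPM under rhCTHRC1, against 257, 240.8 and 250.8 CPM under vehicle (log2 0.10 ± 0.04, adjusted p = 0.578), and these groups overlapped.

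**Figure D1:**
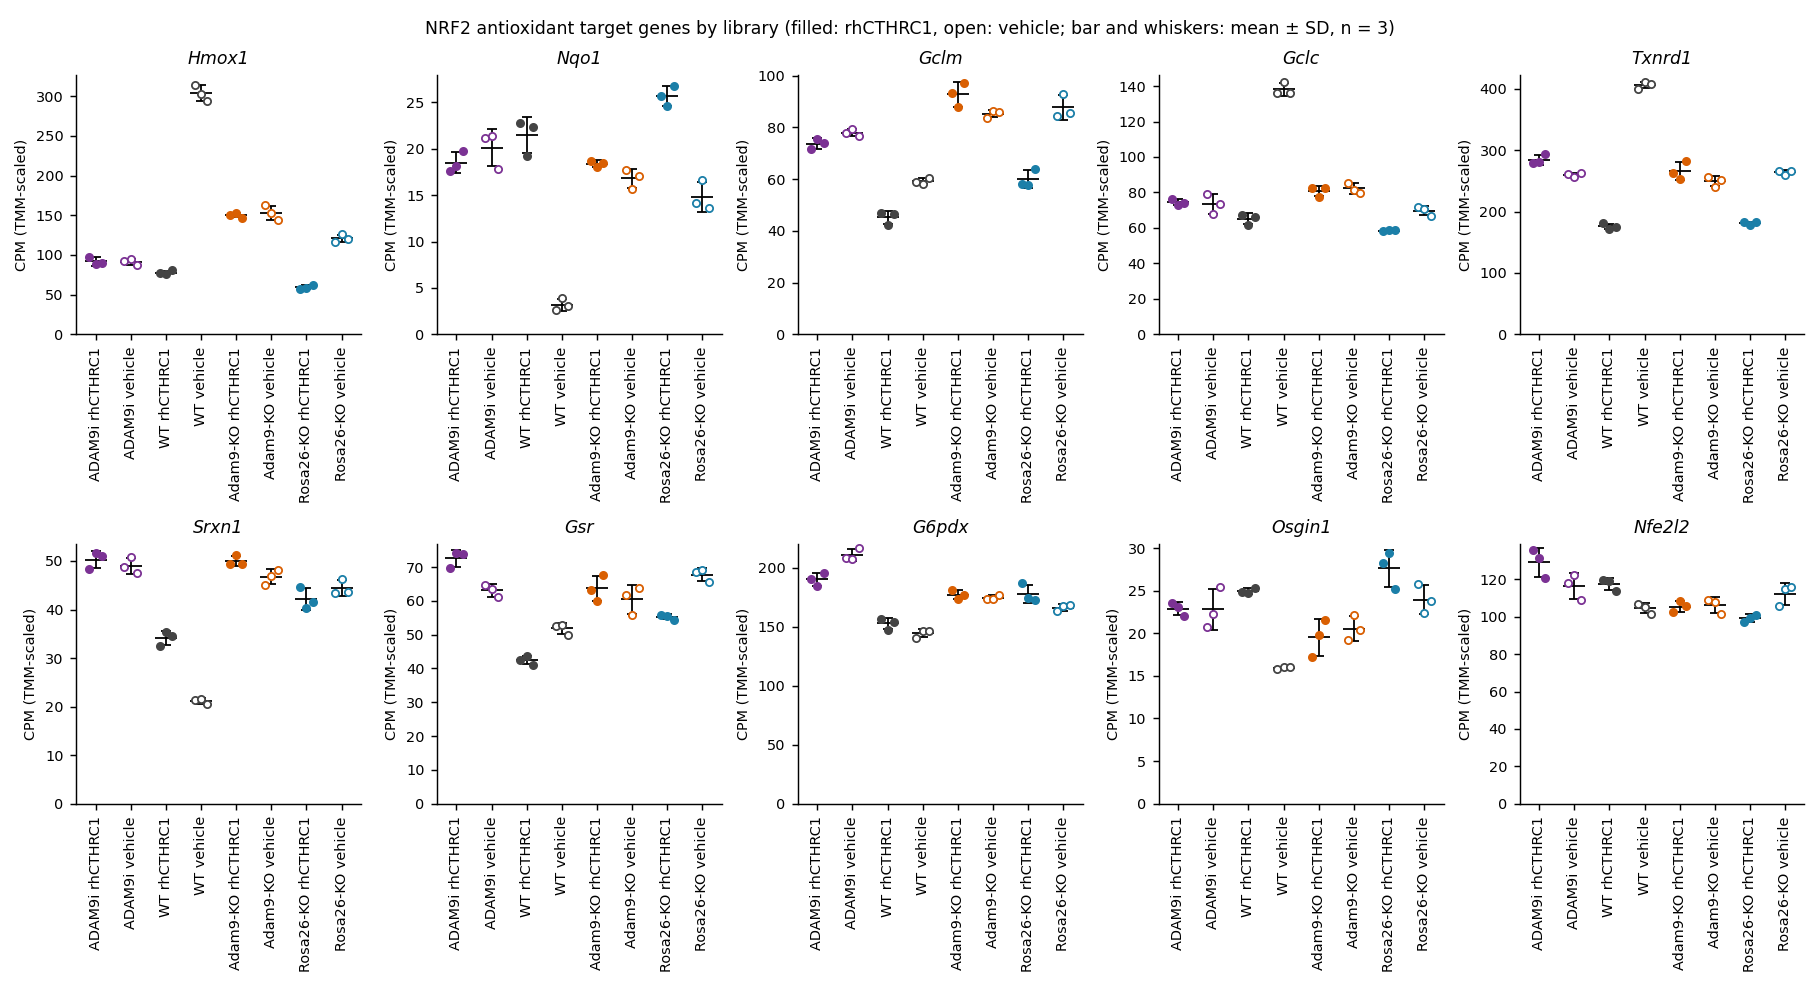
Level of each NRF2 gene in every library, in CPM scaled by TMM, with the groups of 4 backgrounds along the x axis; filled points are rhCTHRC1 libraries, open points vehicle libraries, and bars and whiskers the mean ± SD of 3. Hmox1, Gclc and Txnrd1 stand highest in WT vehicle, Nqo1, Srxn1, G6pdx and Osgin1 lowest there, and in Rosa26-KO cells 6 genes are lower under rhCTHRC1 than under vehicle.

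The difference between the responses was tested directly. Relative to Rosa26-KO cells, the response in Adam9-KO cells was higher for 6 members and lower for 1, against 20.1% and 17.8% of all genes tested. The log2 difference of responses was 1.01 ± 0.07 for Hmox1 (adjusted p = 1.28e-09), 0.68 ± 0.07 for Gclm (7.89e-07), 0.64 ± 0.05 for Txnrd1 (3.86e-08) and 0.37 ± 0.08 for Gsr (0.000903). It was 0.24 ± 0.06 for Gclc (0.00658), 0.17 ± 0.06 for Nfe2l2 (0.0289) and -0.66 ± 0.12 for Nqo1 (0.000173). Srxn1 (0.18, adjusted p = 0.0655), G6pdx (-0.07, 0.257) and Osgin1 (-0.27, 0.102) missed the threshold, although Srxn1 passed it without Adam9-KO vehicle replicate 3 (0.21, 0.0453) or Rosa26-KO rhCTHRC1 replicate 1 (0.23, 0.0287). Scaled by library size alone, the members split into 4 higher and 3 lower, since Gclc (0.15, adjusted p = 0.0654) and Nfe2l2 (0.09, 0.267) no longer passed and G6pdx (-0.16, 0.0123) and Osgin1 (-0.36, 0.0298) then did. The share of called genes that were higher was 41.3% with that scaling and 53.1% with TMM. Of all 18594 genes tested, 2916 were higher and 4153 lower with library size alone. The Nfe2l2 difference also missed the threshold without any 1 of 5 libraries, namely Adam9-KO rhCTHRC1 replicate 2, Adam9-KO vehicle replicate 3, Rosa26-KO rhCTHRC1 replicate 1 and Rosa26-KO vehicle replicates 2 and 3 (adjusted p 0.0545 to 0.0839). Without Adam9-KO rhCTHRC1 replicate 3, Osgin1 passed (-0.34, adjusted p = 0.0379), which gave 2 members lower in place of 1.

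**Figure D2:**
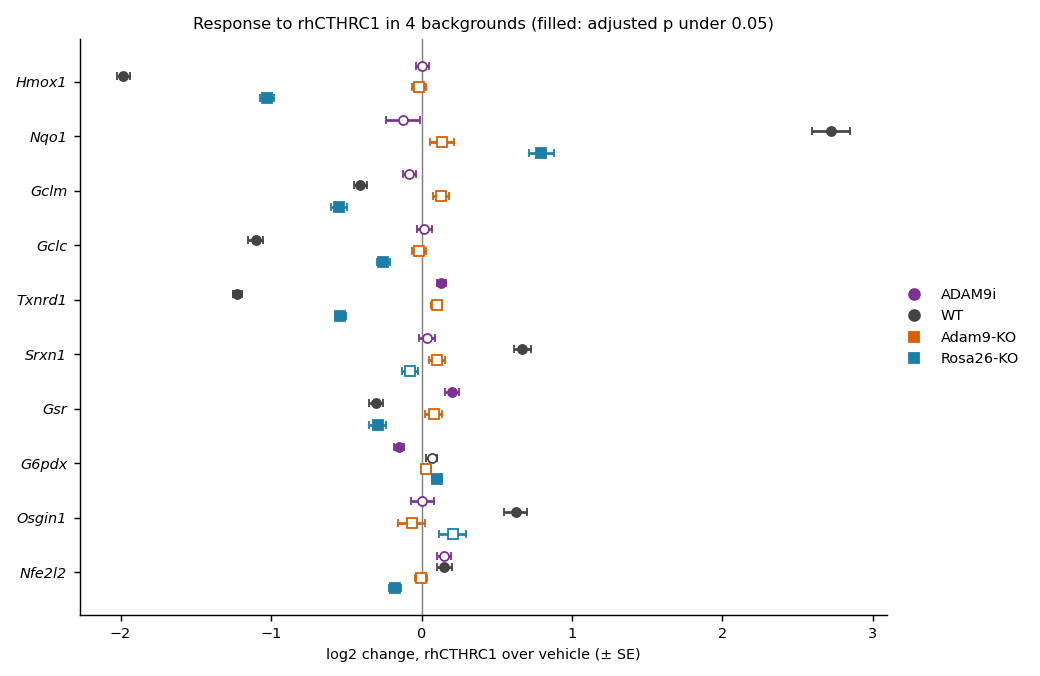
Log2 change of each gene, rhCTHRC1 over vehicle, with its SE along the x axis, in ADAM9i, WT, Adam9-KO and Rosa26-KO cells; filled points passed an adjusted p of 0.05. Hmox1 sits at -1.98 in WT and -1.03 in Rosa26-KO cells, and within 0.02 of 0 in ADAM9i and Adam9-KO cells.

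Set against each other directly under rhCTHRC1, Adam9-KO cells held more mRNA of 6 members than Rosa26-KO cells and less of 2, where 21% of all genes were higher and 19.6% lower. Hmox1 was the widest, 147 to 153 CPM in Adam9-KO against 57.6 to 62.1 CPM in Rosa26-KO libraries, a log2 difference of 1.34 ± 0.05 (adjusted p = 1.47e-13). Gclm (0.63 ± 0.05), Txnrd1 (0.55 ± 0.04), Gclc (0.46 ± 0.05), Srxn1 (0.24 ± 0.05) and Gsr (0.20 ± 0.06) were also higher. Nqo1 (-0.49 ± 0.08, adjusted p = 8.09e-05) and Osgin1 (-0.51 ± 0.09, 0.000141) were lower, and G6pdx (-0.01) and Nfe2l2 (0.08) missed the threshold. Under vehicle the same cells differed in 3 members. Hmox1 (0.33 ± 0.05, adjusted p = 0.00017) and Gclc (0.23 ± 0.05, 0.00256) were higher and Gsr (-0.18 ± 0.06, 0.039) lower in Adam9-KO, where 6.37% of all genes were higher and 8.83% lower. The Gsr call was lost when any 1 of 6 libraries was left out, with adjusted p up to 0.228 without Adam9-KO vehicle replicate 2, and it was lost with library size as the scaling (-0.13, adjusted p = 0.103), when 63.6% of the called genes were higher, against 41.9% with TMM. The other 5 were Adam9-KO rhCTHRC1 replicate 1, Adam9-KO vehicle replicate 1, Rosa26-KO rhCTHRC1 replicate 2 and Rosa26-KO vehicle replicates 1 and 2.

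**Figure D3:**
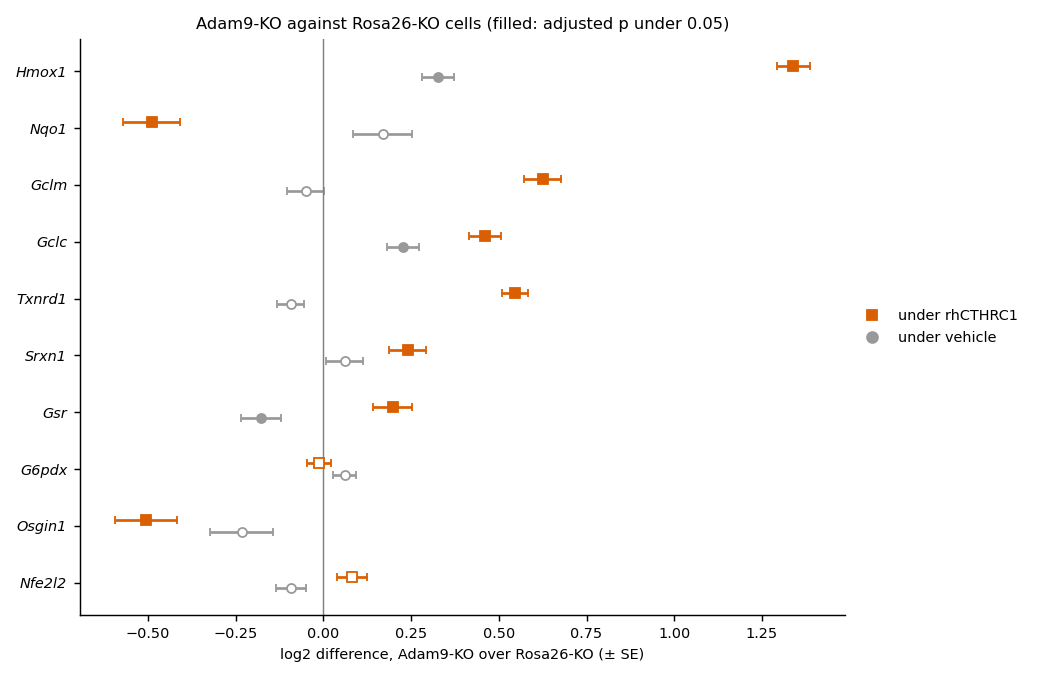
Log2 difference of each gene between Adam9-KO and Rosa26-KO cells with its SE, squares under rhCTHRC1 and circles under vehicle; filled points passed an adjusted p of 0.05. Hmox1 lies at 1.34 under rhCTHRC1 and at 0.33 under vehicle, and Nqo1 and Osgin1 lie below 0 under rhCTHRC1.

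Marker genes moved with the Rosa26-KO response. The 8 smooth-muscle markers summed to 130.2 to 134 CPM under rhCTHRC1, against 519 to 536 CPM under vehicle, a sum carried by Acta2, the smooth-muscle actin, at 40.6 ± 1.78 against 415 ± 5.71 CPM. Taken one by one, 4 of the 8 fell (Acta2, Tagln, Myocd and Smtn), Des rose and 3 missed the threshold, with a median log2 change of -0.08. The 6 fibroblast markers summed to 483 to 503 CPM under rhCTHRC1, against 303 to 329 CPM under vehicle, most of it Pdgfra and Dcn. Endothelial markers (6 genes) summed to 7.15 to 7.81 CPM under rhCTHRC1, against 2.47 to 2.99 CPM under vehicle, with Vwf higher, Kdr lower and the other 2 of the 4 tested missing the threshold. Macrophage markers (6 genes) summed to 5.12 to 7.35 CPM under rhCTHRC1, against 3.62 to 4.94 CPM under vehicle, and none of the 3 tested passed. In Adam9-KO cells the smooth-muscle sum was 434.5 to 530.1 CPM under rhCTHRC1 and 519.6 to 543 CPM under vehicle. The part of these shifts in the NRF2 gene values was not tested, and in bulk RNA fewer cells of a type and less RNA per cell cannot be told apart.

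In WT cells rhCTHRC1 lowered 5 members, Hmox1, Gclm, Gclc, Txnrd1 and Gsr, and raised 4, Nqo1, Srxn1, Osgin1 and Nfe2l2. In this comparison 30.8% of all 18816 genes tested were lower and 32.2% higher. The 9 called members thus compare with 63% of all genes called in either direction. Hmox1 had 76.8, 76.1 and 80.5 CPM in WT libraries given rhCTHRC1, against 314, 303 and 294 CPM in WT vehicle libraries, a log2 change of -1.98 ± 0.05 (adjusted p = 1.35e-17). Nqo1 had 22.8, 19.2 and 22.3 CPM under rhCTHRC1, against 2.64, 3.90 and 3.08 CPM under vehicle, a log2 change of 2.72 ± 0.13 (3.77e-13). Neither gene's groups came near each other.

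The glutathione and thioredoxin genes of WT cells went in both directions. Gclc had 67.6, 61.7 and 66.1 CPM under rhCTHRC1, against 136, 142 and 136 CPM under vehicle (log2 -1.10 ± 0.05, adjusted p = 2.58e-13), and Txnrd1 had 181, 172 and 175 CPM under rhCTHRC1, against 400.4, 410.5 and 407.5 CPM under vehicle (-1.22 ± 0.03, 2.76e-17). Gclm (-0.41 ± 0.05, 1.79e-07) and Gsr (-0.30 ± 0.05, 1.24e-05) fell less. Srxn1 had 32.5, 35.3 and 34.5 CPM under rhCTHRC1, against 21.4, 21.6 and 20.5 CPM under vehicle (0.67 ± 0.06, 3.47e-09). Osgin1 had 24.8, 24.7 and 25.3 CPM under rhCTHRC1, against 15.9, 16.1 and 15.99 CPM under vehicle (0.63 ± 0.08, 6.14e-07). Nfe2l2 had 119.8, 119 and 114 CPM under rhCTHRC1, against 107, 105 and 102 CPM under vehicle (0.15 ± 0.05, 0.00928). G6pdx did not overlap between the groups, at 148 to 157 against 140.5 to 147 CPM, but its log2 change of 0.07 ± 0.03 missed the threshold (adjusted p = 0.1). Scaled by library size alone, the median over all genes moved to 0.21, against 0.03 with TMM, and 61.4% of the called genes were higher, against 51.1% with TMM. G6pdx then passed at 0.25, close to that shifted median.

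Both WT and Rosa26-KO cells, which have no library in common, thus lowered Hmox1, Gclm, Gclc, Txnrd1 and Gsr and raised Nqo1. These 6 made up 6 of the 9 members called in WT and 6 of the 8 called in Rosa26-KO cells, and 6 of all 10 members. Over all genes, 11852 were called in WT and 8413 in Rosa26-KO cells. Of the 18043 genes tested in both, 6259 (34.7%) were called in the same direction in both. Agreement between these backgrounds was thus common among all genes. Nfe2l2 passed in both with opposite signs. Whether the sizes differed between the 2 backgrounds was not tested.

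The WT values rest on the vehicle libraries that stood apart. Their 3 libraries lay above all 21 others for Hmox1, Gclc and Txnrd1 and below all 21 others for Nqo1, Srxn1, G6pdx and Osgin1, and inside the range of the others for Gclm, Gsr and Nfe2l2. The share of all genes that stood apart in this way was not counted. In ADAM9i vehicle against WT vehicle 29.9% of all genes were higher and 27.5% lower, so differences from WT vehicle were common among all genes. Hmox1 averaged 304 CPM in WT vehicle and 59.2 to 153 CPM in the other 7 groups, Txnrd1 406 CPM against 176 to 285 CPM, Nqo1 3.20 CPM against 14.8 to 25.7 CPM and Srxn1 21.2 CPM against 34.1 to 50.3 CPM. The same libraries also differed in markers. Endothelial markers summed to 24.4 to 27.2 CPM there, mainly Vwf, against 2.47 to 13.1 CPM elsewhere, fibroblast markers to 77.1 to 83.2 CPM against 274 to 503 CPM elsewhere, and the 5 epithelial markers were all at 0. The smooth-muscle sum was 143 to 155 CPM in WT cells given rhCTHRC1, against 280.1 to 343 CPM in WT vehicle, a fall carried by Acta2, since 4 of the 8 markers rose (Cnn1, Des, Lmod1 and Smtn) and 3 fell (Acta2, Tagln and Myocd), with a median log2 change of 0.60. Mitochondrially encoded genes took at most 3.22% of the counts in WT vehicle and at least 3.61% in every other library. The part of these features in the WT response was not tested.

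Set against the vehicle libraries of another background, in a fit of all 24 libraries, part of the WT pattern remained. Against Rosa26-KO vehicle, WT cells given rhCTHRC1 were lower in 6 members (background 25.7%) and higher in 1 (24.4%). Against ADAM9i vehicle they were lower in 7 (25.8%) and higher in 0 (24.6%). Hmox1 (-0.63 ± 0.05 against Rosa26-KO vehicle, -0.23 ± 0.05 against ADAM9i vehicle), Gclm (-0.95, -0.78), Txnrd1 (-0.58, -0.56) and Gsr (-0.67, -0.57) stayed lower against both. Nqo1 was higher by 0.53 ± 0.10 against Rosa26-KO vehicle, and its difference of 0.09 ± 0.10 from ADAM9i vehicle missed the threshold (adjusted p = 0.486). Gclc was lower against ADAM9i vehicle only (-0.17, adjusted p = 0.00252), with -0.10 and adjusted p = 0.0836 against Rosa26-KO vehicle. Srxn1 (-0.38, -0.52) and G6pdx (-0.12, -0.46) were lower against both, the opposite sign to the comparison with WT vehicle, and Osgin1 and Nfe2l2 missed the threshold in both. These comparisons cross backgrounds, so background and treatment cannot be told apart in them.

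**Figure D4:**
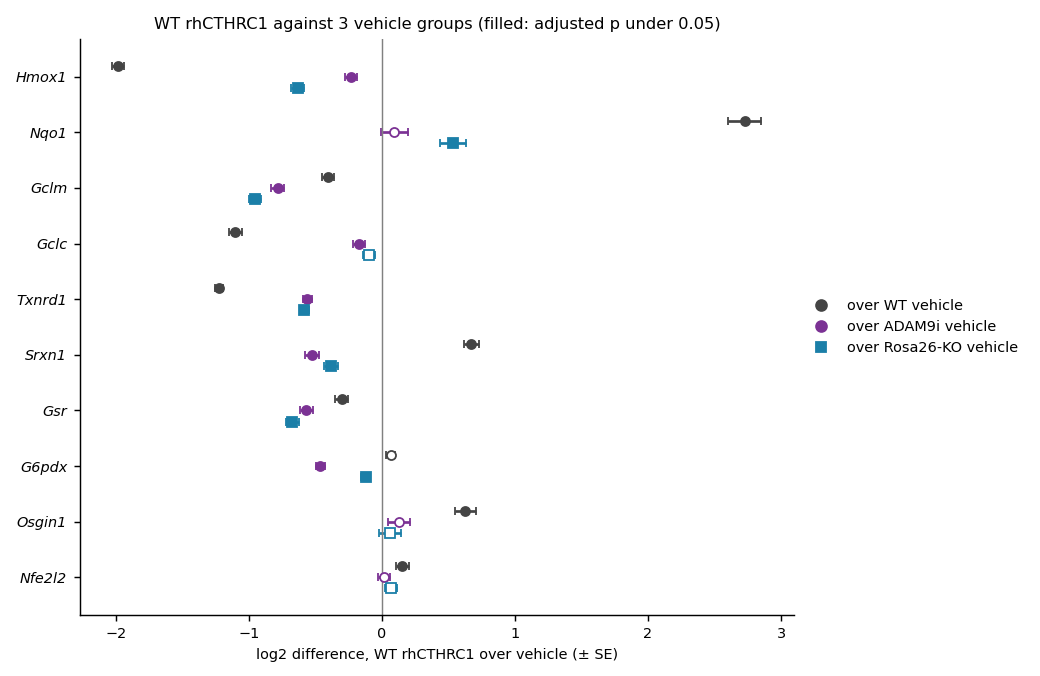
Log2 difference of each gene in WT cells given rhCTHRC1 from the vehicle libraries of WT, ADAM9i and Rosa26-KO cells, with its SE; filled points passed an adjusted p of 0.05. Hmox1 lies at -1.98 against WT vehicle, -0.23 against ADAM9i vehicle and -0.63 against Rosa26-KO vehicle, and Srxn1 changes sign.

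Under the ADAM9 inhibitor 3 members passed, all with small changes. Txnrd1 had 279.6, 280.5 and 294 CPM in ADAM9i libraries given rhCTHRC1, against 261, 256 and 262 CPM in ADAM9i vehicle libraries, without overlap (log2 0.13 ± 0.03, adjusted p = 0.0137). Gsr had 69.7, 74.2 and 74.0 CPM under rhCTHRC1, against 64.8, 63.4 and 61.1 CPM under vehicle, also without overlap (0.20 ± 0.05, 0.0164). G6pdx was lower, with 190.3, 185 and 196 CPM under rhCTHRC1, against 209, 208 and 217 CPM under vehicle (-0.15 ± 0.03, 0.0165). In this comparison 2.66% of all genes were higher and 1.32% lower. Each of the 3 calls was lost when single libraries were left out: Txnrd1 without ADAM9i rhCTHRC1 replicate 3 (0.11, adjusted p = 0.098) or ADAM9i vehicle replicate 2 (0.12, 0.0675), Gsr without ADAM9i replicate 2 or 3 of either treatment (0.18 to 0.20, 0.0581 to 0.0955), and G6pdx without ADAM9i rhCTHRC1 replicate 1 or 2 or ADAM9i vehicle replicate 3 (-0.15 to -0.13, 0.0519 to 0.077). Hmox1 had 97.8, 88.0 and 89.5 CPM under rhCTHRC1, against 92.1, 94.9 and 87.3 CPM under vehicle, and Nqo1 had 17.6, 18.1 and 19.8 CPM under rhCTHRC1, against 21.1, 21.4 and 17.9 CPM under vehicle. Both overlapped and missed the threshold (adjusted p = 0.985 and 0.701).

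The ADAM9i response minus the WT response was higher for 5 members and lower for 4, against 27.8% and 28.3% of all genes. The largest were -2.85 ± 0.17 for Nqo1 (adjusted p = 2.57e-11), 1.99 ± 0.06 for Hmox1 (3.5e-15), 1.36 ± 0.04 for Txnrd1 (2.08e-15) and 1.12 ± 0.07 for Gclc (6.13e-11). Every one of these uses the WT vehicle libraries. With library size as the scaling the median of all genes was -0.24, against -0.04 with TMM, 38.5% of the called genes were higher, against 49.5%, and the members split into 4 higher and 5 lower. Of all 18816 genes tested, 4113 were then higher and 6558 lower. The difference between the treated groups leaves the WT vehicle libraries out, although they entered the filter, the scaling and the spread estimate of the same fit. ADAM9i cells given rhCTHRC1 were higher than WT cells given rhCTHRC1 in 8 members and lower in 0, where 28% of all genes were higher and 26.1% lower. Gsr (0.78 ± 0.05), Gclm (0.71 ± 0.05), Txnrd1 (0.70 ± 0.03), Srxn1 (0.57 ± 0.06) and G6pdx (0.32 ± 0.03) led, followed by Hmox1 (0.25 ± 0.04), Gclc (0.20 ± 0.05) and Nfe2l2 (0.15 ± 0.05). Nqo1 (-0.20 ± 0.11, adjusted p = 0.138) and Osgin1 (-0.11 ± 0.08, 0.225) missed the threshold. With library size as the scaling the median of all genes was -0.16, against -0.02 with TMM, 39.2% of the called genes were higher, against 51.8%, and 6 members were higher and 2 lower, Nqo1 (-0.34, adjusted p = 0.0143) and Osgin1 (-0.25, 0.00862). Of all 18816 genes tested, 4065 were then higher and 6307 lower. Nfe2l2 lost its call without ADAM9i rhCTHRC1 replicate 1 (0.11, adjusted p = 0.105) or WT rhCTHRC1 replicate 3 (0.12, 0.0651).

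Between the vehicle groups of the 2 unedited backgrounds, ADAM9i was higher than WT in 7 members and lower in 3, where 29.9% of all genes were higher and 27.5% lower. Between the 2 control backgrounds, Rosa26-KO vehicle was higher than WT vehicle in 6 and lower in 3 (27.9% and 25.8%). Hmox1 was lower in both, with log2 differences of -1.74 ± 0.04 in ADAM9i and -1.33 ± 0.05 in Rosa26-KO. Nqo1 was higher in both, with 2.64 ± 0.13 in ADAM9i and 2.21 ± 0.11 in Rosa26-KO, and all these values use the same WT vehicle libraries. Under rhCTHRC1, Rosa26-KO cells were higher than WT cells in 5 members and lower in 3 (18.3% and 14.1%). The widest were Gclm at 0.41 ± 0.05 (adjusted p = 1.04e-07) and Hmox1 at -0.40 ± 0.05 (9.17e-08). Nqo1 at 0.26 ± 0.10 passed narrowly (adjusted p = 0.0459). That call was lost, with adjusted p of 0.0506 to 0.229, in 13 of the 24 fits that left out 1 library, namely Rosa26-KO rhCTHRC1 replicate 1, 2 or 3, Rosa26-KO vehicle replicate 1, WT rhCTHRC1 replicate 2 or 3, WT vehicle replicate 3, ADAM9i rhCTHRC1 replicate 1 or 2, ADAM9i vehicle replicate 1, Adam9-KO rhCTHRC1 replicate 1 or 2 and Adam9-KO vehicle replicate 3. In this comparison 44.8% of the called genes were higher with library size as the scaling, against 56.5% with TMM.

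Across all 8 groups the members differed in how far they ranged. The ratio of the highest to the lowest group mean was 8.02 for Nqo1, 5.13 for Hmox1, 2.37 for Srxn1, 2.36 for Gclc, 2.31 for Txnrd1 and 2.05 for Gclm, and 1.30 for Nfe2l2, the smallest. Without WT vehicle these became 1.73 for Nqo1, 2.58 for Hmox1, 1.48 for Srxn1, 1.41 for Gclc, 1.62 for Txnrd1 and 2.05 for Gclm, so that Hmox1 then had the widest range. Hmox1 ran in order from WT vehicle (304 CPM) through Adam9-KO vehicle (153), Adam9-KO rhCTHRC1 (150.3), Rosa26-KO vehicle (121), ADAM9i rhCTHRC1 (91.7), ADAM9i vehicle (91.4) and WT rhCTHRC1 (77.8) to Rosa26-KO rhCTHRC1 (59.2). Only 2 of its 7 neighbouring pairs overlapped, the 2 Adam9-KO groups and the 2 ADAM9i groups. Nqo1 was highest in Rosa26-KO rhCTHRC1 (25.7 CPM), with all neighbours from WT rhCTHRC1 (21.5) through ADAM9i vehicle (20.1) and ADAM9i rhCTHRC1 (18.5) to Adam9-KO rhCTHRC1 (18.4) overlapping. Gclm was lowest in WT rhCTHRC1 (45.2 CPM), below WT vehicle (59.2) and Rosa26-KO rhCTHRC1 (59.9), which overlapped each other, and highest in Adam9-KO rhCTHRC1 (92.8), which overlapped Rosa26-KO vehicle (87.7). Txnrd1 had its 2 lowest groups in WT rhCTHRC1 (176 CPM) and Rosa26-KO rhCTHRC1 (181), whose libraries overlapped, while Adam9-KO rhCTHRC1, Rosa26-KO vehicle and ADAM9i vehicle could not be ordered beyond their spread. For Osgin1 6 of 7 neighbouring pairs overlapped and for Nfe2l2 5 of 7. Per length, as deposited FPKM, Hmox1 had group means of 31.7 to 151, G6pdx 40.8 to 61.6, Txnrd1 24.01 to 49.9, Gclc 14.6 to 31.9 and Nqo1 1.79 to 15.5.

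The members did not share 1 pattern. Over the 8 group means of log2(CPM + 1), Pearson's r was 0.943 between Hmox1 and Gclc, 0.858 between Hmox1 and Txnrd1, 0.853 between Gclm and Gsr and 0.84 between Nqo1 and Osgin1. It was -0.883 between Hmox1 and Nqo1, -0.963 between Hmox1 and Osgin1 and -0.96 between Gclc and Osgin1. Without WT vehicle, over 7 groups, Hmox1 and Nqo1 gave -0.819, Hmox1 and Osgin1 -0.909 and Gclc and Osgin1 -0.973, whereas Txnrd1 and Srxn1 gave 0.875 over 7 groups and -0.392 over 8. The positive pairs gave 0.902 for Hmox1 and Gclc, 0.68 for Hmox1 and Txnrd1, 0.838 for Gclm and Gsr and 0.597 for Nqo1 and Osgin1 over 7 groups. Gclm, Txnrd1, Srxn1 and Gsr gave 0.838 to 0.911 among themselves over 7 groups. The points are group means from the same libraries, so these values are descriptions. Of 8241 genes with a mean of at least 5 CPM and a range of at least 0.5 on the log2 scale, the closest to Hmox1 were Tmem120b (r = 0.990 over 8 groups, 0.975 over 7) and Ube4b (0.988, 0.975). The closest to Nqo1 was Gpr137 (0.996, 0.958), to Gclm Slc30a6 (0.989, 0.996), to Gclc Grb10 (0.987, 0.983), to Txnrd1 Rnf121 (0.998, 0.997), to Srxn1 Nxn (0.996, 0.986), to Gsr Pomp (0.987, 0.991), to G6pdx Ppp1r13l (0.963, 0.939) and to Osgin1 Cdc42ep3 (0.970, 0.938). Nfe2l2, whose own range is narrow, was closest to Tuba4a (0.949, 0.947).

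The wider pathway also moved in both directions in Rosa26-KO cells, but with more rises than falls, the reverse of the balance among the members. Of 40 further target genes tested, 19 rose and 12 fell, where 22% of all genes rose and 23.3% fell, so the falls lie near that background. The median log2 change was 0.17 over these targets, -0.21 over the members and 0.03 over all genes. The same shares, 22% higher and 23.3% lower, are the background for each smaller group that follows. In the glutathione group 8 of 15 rose and 4 fell. All 8 rises were transferase genes, such as Gsta4 (13.5 ± 0.42 CPM under rhCTHRC1, 5.12 ± 0.20 CPM under vehicle, log2 1.40 ± 0.11) and the microsomal Mgst2 (7.28 ± 0.93, 2.40 ± 0.22 CPM, 1.60 ± 0.18). Some transferase genes have near-identical copies, and whether reads were shared between copies was not tested. The falls included both chains of the cystine importer that supplies glutathione synthesis, Slc7a11 (24.4 ± 2.70, 60.3 ± 2.32 CPM, -1.31 ± 0.07) and Slc3a2 (140.2 ± 1.47, 333 ± 9.30 CPM, -1.25 ± 0.04). This importer pair was singled out after its values were seen. All 3 thioredoxin genes fell, Txn1, which encodes thioredoxin, by the most (146.5 ± 1.62, 246 ± 9.09 CPM, -0.75 ± 0.04), with the peroxidase gene Prdx6 at -0.26 ± 0.04. In the NADPH group 2 of 5 rose and 2 fell, among them Idh1 (0.32 ± 0.04) and Taldo1 (-0.44 ± 0.04).

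Among genes for quinones and carbonyls 4 of 10 rose and 3 fell. Aldh3a1, an aldehyde dehydrogenase, averaged 80.8 ± 2.01 CPM under rhCTHRC1 and 15.4 ± 0.63 CPM under vehicle (2.39 ± 0.11, adjusted p = 8.79e-11), and the aldose reductase gene Akr1b3 averaged 192 ± 16.1 and 315 ± 12.5 CPM (-0.72 ± 0.06). Of 7 haem and iron genes 5 rose and 0 fell, the opposite direction to Hmox1. They included Blvrb, a biliverdin reductase (0.63 ± 0.07), and the haem transporter gene Slc48a1 (0.34 ± 0.04). Of 13 antioxidant enzymes outside the usual NRF2 lists 2 rose and 6 fell, led by the glutathione peroxidase gene Gpx1 (79.1 ± 3.87 CPM under rhCTHRC1, 194 ± 6.51 CPM under vehicle, -1.30 ± 0.04) and the mitochondrial peroxiredoxin gene Prdx3 (-0.53 ± 0.05).

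Of 13 regulators of the pathway 1 rose and 7 fell in Rosa26-KO cells, against 22% and 23.3% of all genes. Bach1, the repressor, was the rise, with 44.9, 44.5 and 38.6 CPM under rhCTHRC1, against 31.1, 34.1 and 33.0 CPM under vehicle (0.38 ± 0.07, adjusted p = 0.000233). The small MAF genes fell, Maff with a log2 change of -0.52 ± 0.07, Mafk with -0.42 ± 0.06 and Mafg with -0.28 ± 0.05. Keap1 had 80.0, 73.3 and 73.4 CPM under rhCTHRC1, against 78.2, 78.9 and 76.0 CPM under vehicle, which overlapped (-0.04 ± 0.05, adjusted p = 0.526). In Adam9-KO cells 0 genes of any of these lists passed, and the differences between the 2 responses passed for Bach1 (-0.30 ± 0.10, 0.0263) and Mafg (0.29 ± 0.07, 0.00275) but not for Keap1 (0.06 ± 0.06, 0.513). The same difference was 1.30 ± 0.10 for Slc7a11, from the importer pair singled out above, and -1.49 ± 0.16 for Gsta4 and -1.46 ± 0.255 for Mgst2. It was -2.62 ± 0.15 for Aldh3a1, 0.93 ± 0.05 for Txn1 and 1.40 ± 0.05 for Gpx1.

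**Figure D5:**
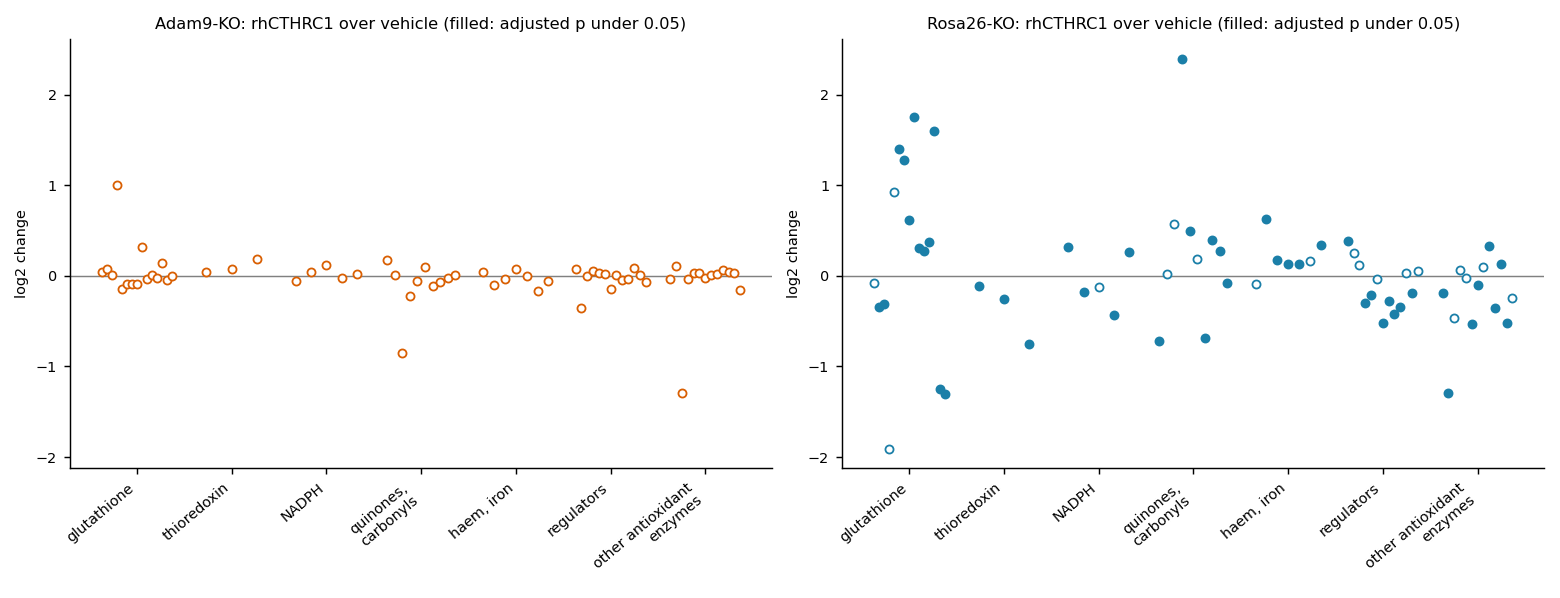
Log2 change, rhCTHRC1 over vehicle, of each further gene of the pathway lists in Adam9-KO and Rosa26-KO cells, grouped along the x axis; filled points passed an adjusted p of 0.05. No point is filled in Adam9-KO cells, and in Rosa26-KO cells Aldh3a1 is the highest point at 2.39.

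In WT cells 22 of 41 further targets rose and 12 fell, with a median of 0.50 against 0.03 over all genes, of which 32.2% rose and 30.8% fell. Against ADAM9i vehicle 19 of the 41 were higher and 11 lower, with a median of 0.19 (24.6% and 25.8% of all genes), and against Rosa26-KO vehicle 18 were higher and 13 lower, with a median of 0.20 (24.4% and 25.7%). Aldh3a1 averaged 92.0 ± 3.24 CPM under rhCTHRC1 and 1.79 ± 0.15 CPM in WT vehicle (5.66 ± 0.09), Slc7a11 51.8 ± 3.78 and 267 ± 3.80 CPM (-2.38 ± 0.05), and Sqstm1, whose protein p62 binds KEAP1, 619 ± 12 and 1822 ± 71.3 CPM (-1.57 ± 0.03). Slc7a11 is from the importer pair singled out above. In the glutathione group 8 of 16 rose and 5 fell, and the largest changes were rises, of Gsta4 (3.60 ± 0.16) and Mgst2 (3.40 ± 0.38). Keap1 rose (0.59 ± 0.04, adjusted p = 3.62e-10), Mafg fell (-0.70 ± 0.04) and Bach1 missed the threshold (-0.05 ± 0.07, 0.599). Of Aldh3a1, Slc7a11, Sqstm1, Keap1 and Mafg, Aldh3a1 kept its direction against both other vehicle groups, with 1.77 ± 0.10 against ADAM9i vehicle and 2.58 ± 0.10 against Rosa26-KO vehicle. Keap1 turned lower (-0.38 ± 0.04, -0.41 ± 0.04), and Mafg (0.29 ± 0.05, 0.26 ± 0.05) and Sqstm1 (0.56 ± 0.05, 0.42 ± 0.05) turned higher. Slc7a11 was higher against ADAM9i vehicle (0.28 ± 0.06) and lower against Rosa26-KO vehicle (-0.22 ± 0.06), and Bach1 was higher against both (0.44 ± 0.08, 0.30 ± 0.08). Under the ADAM9 inhibitor 4 of the 41 rose and 1 fell, with a median of 0.02, where 2.66% of all genes rose and 1.32% fell. Gss, glutathione synthetase (0.36 ± 0.07), and Aldh3a1 (0.32 ± 0.07) changed the most among them.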

How the data were processed

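RNA of MOVAS cells was sequenced in 24 libraries (TruSeq Stranded Total RNA kit, 150-base paired ends, per the labels' protocols). GRCm38, HISAT2, StringTie and DESeq2 are listed in the submitters' processing notes. Not given in the sources used here were their versions, any filter and whether counting used strand. The authors deposited whole-number read counts and FPKM values per gene in 1 table, with replicates kept apart.

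The deposited counts were fitted with edgeR 4.0.16 (R 4.3.3): TMM scaling, filterByExpr, and a robust quasi-likelihood test, two-sided, with Benjamini-Hochberg adjustment over all genes tested at 0.05. WT with ADAM9i (12 libraries) and Rosa26-KO with Adam9-KO (12 libraries) were fitted separately, with 8 residual degrees of freedom each; comparisons across those pairs used all 24 libraries (16). Standard errors came from the log2 change and its F. The deposited FPKM values served for levels per length and for limma 3.58.1 on log2(FPKM + 1), where genes had at least 1 FPKM in 3 libraries. Further alternatives were RLE factors, library size alone, DESeq2 1.42.0, no filter on low counts, all 24 libraries, a replicate block, each library left out, and other vehicle groups in place of WT vehicle. The test was checked on simulated counts.

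The members and gene lists were chosen with earlier results of these data known. The text names all members, Keap1, Bach1, Mafg and the genes whose 8 group means, as log2(CPM + 1), were most like a member's. For the Rosa26-KO response it also names the 2 called genes of each pathway group with the largest change and a mean of at least 1 CPM. In other comparisons only some of the genes picked by that rule are named. Slc7a11 and Slc3a2 were picked after their values were seen. All 68 pathway genes had an entry. No 2 libraries of a group agreed within sampling noise (chi-square per degree of freedom 9.39 to 17.1). Promoter windows came from RefSeq on GRCm38.p6, loci from the deposited table.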

Additional observations from a re-analysis of the deposited data

Results flagged for a closer look

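The responses to rhCTHRC1 differed between backgrounds, by an interaction term in edgeR, for 16 gene and background pairs. For Adam9-KO minus Rosa26-KO cells 6 of 10 members were higher and 1 lower, against 20.1% and 17.8% of all genes. For ADAM9i minus WT cells 5 of 10 were higher and 4 lower, against 27.8% and 28.3% of all genes. In Adam9-KO minus Rosa26-KO cells the log2 difference was 1.01 for Hmox1, 0.68 for Gclm, 0.64 for Txnrd1, 0.37 for Gsr, 0.24 for Gclc, 0.17 for Nfe2l2 and -0.66 for Nqo1. In ADAM9i minus WT cells it was 1.99 for Hmox1, 1.36 for Txnrd1, 1.12 for Gclc, 0.51 for Gsr, 0.32 for Gclm, -0.22 for G6pdx, -0.62 for Osgin1, -0.63 for Srxn1 and -2.85 for Nqo1, and each of these uses the WT vehicle libraries that stood apart. Hmox1, Gclm, Gclc, Txnrd1 and Gsr were positive in both, and Nqo1 was negative in both. The share of all genes with the same sign in both was not counted.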

How the results depend on the processing

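For the WT response, 4 members were higher against WT vehicle but 0 against ADAM9i vehicle and 1 against Rosa26-KO vehicle, where 32.2%, 24.6% and 24.4% of all genes were higher. Srxn1 then changed sign, to -0.52 with ADAM9i vehicle and -0.38 with Rosa26-KO vehicle, and so did G6pdx, to -0.46 and -0.12. Library size alone, and limma on log2(FPKM + 1), each gave 2 members lower for ADAM9i against WT under rhCTHRC1, 3 lower for the Adam9-KO minus Rosa26-KO response and 0 lower for Adam9-KO against Rosa26-KO vehicle. In the same order, library size alone gave 6307 of 18816, 4153 of 18594 and 1011 of 18594 genes lower. Limma gave 5310 of 12886, 3635 of 12664 and 827 of 12664 lower. Limma also gave 5 members higher for ADAM9i against WT under rhCTHRC1 (3885 of 12886 genes) and 4 higher for Adam9-KO against Rosa26-KO vehicle (1704 of 12664 genes). The cause of these shifts was not tested. Leaving out 1 library at a time gave 0 to 2 members higher and 0 to 1 lower in the ADAM9i response, 1 to 3 higher in the Rosa26-KO response, 1 to 2 lower in the Adam9-KO minus Rosa26-KO response and 0 to 2 lower for Adam9-KO against Rosa26-KO vehicle. Over all genes and both directions, the same fits called 397 to 723, 7555 to 8643, 6367 to 6898 and 1760 to 3314 genes, in that order. Over single genes, these fits kept 1630 results on their side of the threshold, moved 10 past it and 40 back. Replicate numbers gave no clear pairing of the libraries: r between same-numbered deviations ran from -0.198 to 0.207, and 0 of 28 group pairs had every r over 0.1. ADAM9i vehicle and ADAM9i rhCTHRC1 came closest, at 0.098 to 0.207 (mean 0.149, against -0.075 for other numbers), so weak pairing may be present there. With the replicate block, 117 single-gene results kept their side, and it gained Nfe2l2 in the ADAM9i response (adjusted p = 0.0298) and in Rosa26-KO against WT vehicle (0.0454) and lost Nqo1 in Rosa26-KO against WT under rhCTHRC1 (0.0557). With 3 libraries a group, changes near 0.1 on the log2 scale, as for G6pdx, were called or not depending on single libraries. So were some larger ones, such as 0.26 for Nqo1 in Rosa26-KO against WT under rhCTHRC1 and 0.20 for Gsr in the ADAM9i response.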
